A study of Homo sapiens with 2 samples.

Results

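The genes described here are the keratins and the genes of the cornified envelope, the protein shell that squamous cells build under their membrane. They were taken by symbol from the platform's annotation: every gene named KRT followed by a number, together with SCEL, IVL, EVPL, PPL, SPRR1A, SPRR1B, SPRR3, TGM1 and CNFN. This gave 53 genes with 70 probe sets, out of 19775 genes with a probe set of their own among 54675 probe sets in all. The members were chosen with earlier results of these data known. The samples were AGS cells, an established epithelial line from a human gastric adenocarcinoma. There were 2 one-colour Affymetrix arrays, 1 from cells labelled control and 1 from cells in which galectin-3 (LGALS3, a lectin that binds beta-galactosides) was silenced with a small interfering RNA. The dose, the duration and how control cells were treated were not stated. The comparison asks which of these genes differ when galectin-3 is silenced. With 1 array per group there is no replicate and no test, so every ratio compares these arrays and not the conditions.

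Keratins are the intermediate filament proteins of epithelia. A filament is built from pairs of an acidic type I and a basic type II chain, so that members of both types are made together in a cell. Simple epithelia such as the lining of the stomach and gut use KRT8 and KRT18 as their basic pair, often with KRT19, KRT7 or KRT20. Stratified epithelia use other pairs, such as KRT5 with KRT14 in basal cells and KRT1 with KRT10 in the layers above. Envelope genes encode scaffold proteins (PPL, EVPL, SCEL, IVL), small proline-rich bridging proteins (SPRR1A, SPRR1B, SPRR3), cornifelin (CNFN) and TGM1, the transglutaminase that cross-links them.

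The values are MAS5 signals, an intensity on a linear scale. A probe set was counted as above background where its signal passed a floor set on each array, the 95th percentile over 135 olfactory receptor probe sets, genes taken to be silent in stomach cells. This floor was 138.39 for the control and 109.54 for the silenced cells. A gene takes the value of its brightest probe set (leaving out the cross-hybridising _x_at kind where it has another) and is called measured where that probe set is above the floor on at least 1 array. Lower signals were raised to the floor, so the ratio of a gene above it on 1 array only is a lower limit of the difference (a bound). On the log2 scale a positive ratio means a higher signal after silencing. Signals are compared between arrays for the same probe set. They are not compared between genes, except in the summed signals of cell type markers, which mix probe sets.

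Most keratin and envelope genes were not detected in these cells. Of the 53 genes 14 were measured (26.4%), against 53.2% of all genes. The share depended on the class. Of 5 simple keratins 4 were measured, and of 9 envelope genes 5. Of 17 stratified keratins 3 were measured, of 19 hair follicle keratins 1, and of the 3 remaining keratins (KRT23, KRT80 and KRT222) 1. At probe set level 20 of 70 passed the floor on at least 1 array.

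**Figure D1:**
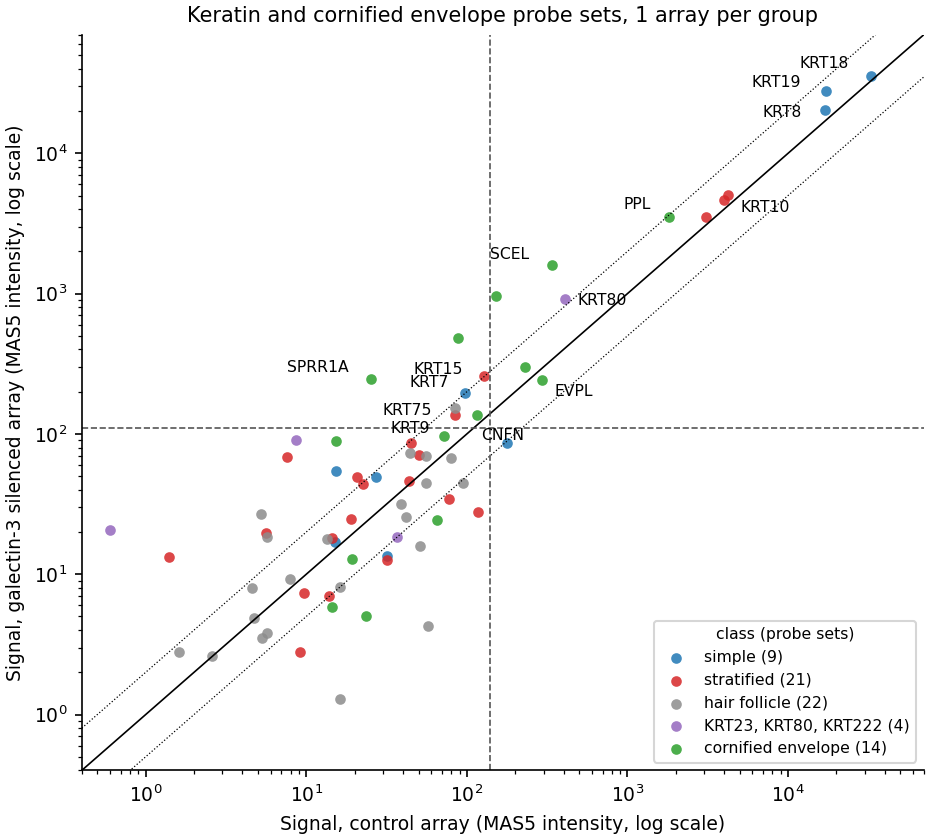
Signals of all 70 probe sets on the control array (x) and the silenced array (y), both on log axes, coloured by class. Dashed lines are the floors (138.39 and 109.54), the solid line marks equal signals and dotted lines 2-fold. The 50 probe sets in the lower left quadrant are under the floor on both arrays, and the named points are the probe sets that stand for the 14 measured genes.

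More of these genes passed the floor on the silenced array than on the control array. All 14 measured genes passed it there, and 8 passed it on the control array. By the probe set that stands for each gene, the 6 above the floor on the silenced array only were KRT7, KRT9, KRT15, KRT75, CNFN and SPRR1A. For 2 of them another probe set passed the floor in control cells: that of SPRR1A did so on both arrays, and that of KRT7 on the control array only. Among all measured genes 7.40% passed on the silenced array only. The lower floor of the silenced array enters this count. With 138.39 as the floor on both arrays, an alternative added after the data were seen, KRT9 and CNFN dropped out and 4 of 12 measured members passed on the silenced array only, against 4.19% of all genes.

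Genes were counted by size alone, at 2-fold or more (a log2 ratio of 1) up or down. Of the 14 measured members 2, SCEL and KRT80, were at least 2-fold higher after silencing, and 3.31% of all measured genes were. Because the members were chosen with earlier results known, the comparisons with all genes cannot be read as an excess. None of the 14 was 2-fold lower, where 3.07% of all measured genes were. Leaving aside KRT9 and CNFN, whose bounds have no direction, 11 members had a ratio above 0 and EVPL had one under 0. Of all measured genes with a direction, 5112 were above 0 and 5049 under it. For 4 of the 11 (KRT7, KRT15, KRT75 and SPRR1A) the ratio is a bound. Their probe sets passed the floor on the silenced array only, which fixes the direction of a bound in advance. KRT7 is counted above 0 by the probe set that stands for it, while another of its probe sets was lower after silencing, and in the scaling to poly-A controls KRT18 joined EVPL under 0 and KRT75 had a bound with no direction. The median log2 ratio of the 14, bounds included, was 0.38, against -0.02 over all 10514 measured genes. Over the 8 members above the floor on both arrays it was 0.47, against -0.01 over all such genes. Of these 8, EVPL alone was under 0 with the deposited scaling. The counts depended on how the arrays were scaled: 5 members were 2-fold higher with the array's hybridization controls set equal and 1 with its poly-A controls set equal. These scalings put the median of all genes at 0.17 and -0.25.

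**Figure D2:**
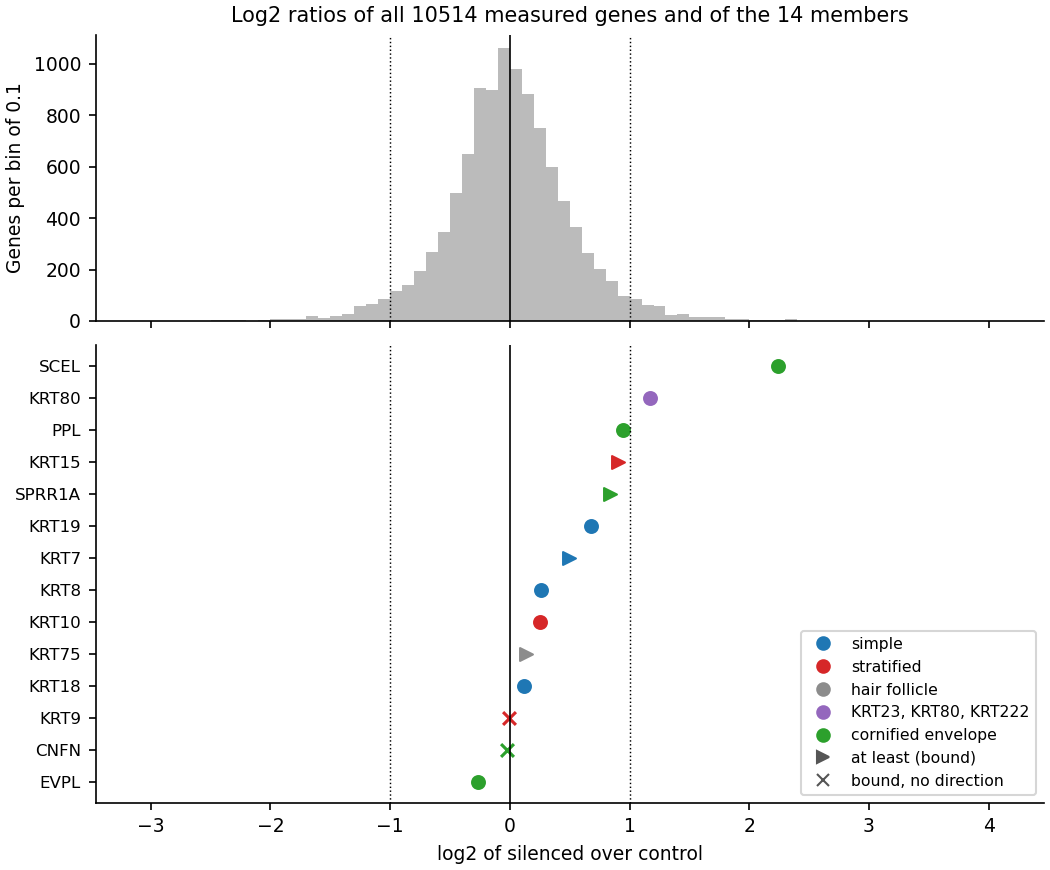
Top: log2 of silenced over control for all 10514 measured genes, in bins of 0.1. Bottom: the same ratio for the 14 measured keratin and envelope genes, coloured by class. Triangles are bounds (at least this much higher), crosses are bounds with no direction, and dotted lines mark 2-fold. SCEL at 2.24 and KRT80 at 1.17 lie beyond 2-fold and EVPL at -0.27 is the lowest, with the deposited scaling.

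Among the scaffold genes of the envelope SCEL stood out. SCEL encodes sciellin, a precursor of the cornified envelope. The probe set that stands for it read 340.4 in control and 1603.8 in silenced cells, which is 4.71-fold higher. Of all measured genes it ranked 16 by its ratio. The other probe sets that passed the floor went the same way. One read 152.1 and 955.3 (6.28-fold higher) and another 87.7, under the floor, and 479.8, which is at least 3.47-fold higher. The fourth did not pass the floor on either array (14.5 and 5.8). The log2 ratios of these probe sets ran from a bound of 1.79 to 2.65. Probe sets for the same gene, read on these same 2 arrays, differed in log2 ratio with an SD of 0.32 over 4728 genes. All SCEL ratios above the floor were several times that size. This SD holds no variation between arrays, RNA preparations or cultures, which was not measured. The log2 ratios of all genes above the floor on both arrays had an SD of 0.52. SCEL stayed at least 2-fold higher under all 12 alternatives, with log2 ratios from 2.003 to 2.65.

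PPL and EVPL encode periplakin and envoplakin, large plakins that form a pair and link the envelope to desmosomes and keratin filaments. They did not go together here. PPL read 1811.7 in control and 3491.7 in silenced cells. This is 1.93-fold higher, with a log2 ratio of 0.95 that stops just short of 2-fold and reached 1.13 with the hybridization controls set equal. EVPL read 292.8 and 243.5, which is 1.20-fold lower. Its log2 ratio of -0.27 was smaller in size than the SD of 0.32 between probe sets, which leaves out variation between arrays. It stayed under 0 with every scaling tried, between -0.50 and -0.08. Each of these genes has 1 probe set, so neither ratio could be compared with a second one. IVL, involucrin, an early scaffold of the envelope, stayed under the floor at 23.5 and 5.0.

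The small proline-rich genes were at the limit of detection. SPRR1A read 25.2 in control cells, under the floor, and 247.7 after silencing. It was therefore at least 1.79-fold higher. Its second probe set, of the _x_at kind, was above the floor on both arrays with 228.7 and 299.9, a log2 ratio of 0.39. Both probe sets were higher after silencing, but only the _x_at one had a signal above the floor in control cells. With a floor 2 times higher the first probe set had a bound with no direction. SPRR1B read 65.5 and 24.2, and the brighter SPRR3 probe set 72.1 and 96.8, all under the floor. CNFN read 114.8 and 136.4. It passed the floor on the silenced array only and, with the control floor at 138.39, has no direction. TGM1, the cross-linking enzyme itself, was under the floor with 19.2 and 12.9.

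The stretches before the start sites of SCEL, SPRR1A and KRT10 are shown. SCEL and SPRR1A were picked because they read higher after silencing (SPRR1A as a bound) and both hold the core of an AP-1 site. KRT10, a stratified keratin that was nearly level, was added for comparison. The difference in AP-1 cores between them and KRT10 was therefore set by the choice of genes. Each stretch is the 250 bases before the start in RefSeq, build GRCh38.p14, 5′ to 3′ on the gene's strand. Capitals mark TGANTCA (the AP-1 core, which reads the same on both strands) and TATAAA (the TATA box, searched on both strands). SCEL lies at chr13:77535456-77535705 on the plus strand, SPRR1A at chr1:152983831-152984080 on the plus strand and KRT10 at chr17:40822615-40822864 on the minus strand.
SCEL: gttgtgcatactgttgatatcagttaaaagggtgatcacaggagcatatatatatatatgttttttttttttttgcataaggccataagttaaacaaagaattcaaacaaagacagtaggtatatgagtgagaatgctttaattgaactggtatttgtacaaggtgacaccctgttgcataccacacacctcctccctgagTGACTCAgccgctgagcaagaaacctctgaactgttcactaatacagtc
SPRR1A: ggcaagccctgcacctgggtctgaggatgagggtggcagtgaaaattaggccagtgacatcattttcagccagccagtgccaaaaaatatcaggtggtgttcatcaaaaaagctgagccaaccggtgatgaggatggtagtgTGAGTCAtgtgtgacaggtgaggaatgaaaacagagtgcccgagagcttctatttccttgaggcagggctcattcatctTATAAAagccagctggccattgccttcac
KRT10: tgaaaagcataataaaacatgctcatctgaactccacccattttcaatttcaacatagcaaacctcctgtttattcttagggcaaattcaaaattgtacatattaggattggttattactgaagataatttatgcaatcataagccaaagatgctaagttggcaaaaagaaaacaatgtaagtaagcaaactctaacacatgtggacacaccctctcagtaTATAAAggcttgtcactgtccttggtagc

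In SCEL the AP-1 core TGACTCA begins at position -49 from the start, and in SPRR1A the core TGAGTCA begins at -108. Both SPRR1A and KRT10 carry TATAAA from position -29, and this 250-base window of SCEL has no such run. Promoters of 35 member genes were matched in the RefSeq table, 7 of them of measured genes (SCEL, SPRR1A, CNFN, KRT8, KRT9, KRT10 and KRT75). The measured genes KRT80, PPL, EVPL, KRT7, KRT15, KRT18 and KRT19 were not searched. The AP-1 core was present in 5 of the 35, which were IVL, SCEL, SPRR1A, SPRR1B and SPRR3, and in 6.6% of all 35116 windows of this length. All 5 are envelope genes, and 3 of them (IVL, SPRR1B and SPRR3) were under the floor on both arrays. TATAAA was present in 18 of the 35, against 10.7% of all windows. The GC box GGGCGG, on either strand, was present in 5, against 42.6%. A match describes the letters only and shows no binding.

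KRT80 was the only keratin at least 2-fold higher. It encodes a type II keratin found in many epithelia, near desmosomes and at cell margins, and was counted in neither the simple nor the stratified class. It read 410.6 in control and 922.3 in silenced cells, which is 2.25-fold higher, on its only probe set. Of all measured genes 2.08% had a ratio at least as high. Its log2 ratio of 1.17 was 0.93 with the poly-A controls set equal, short of 2-fold, and at least 1 under the other 11 alternatives. KRT23, a type I keratin of the same remaining group, was under the floor with 8.6 and 91.1, as was KRT222.

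**Figure D3:**
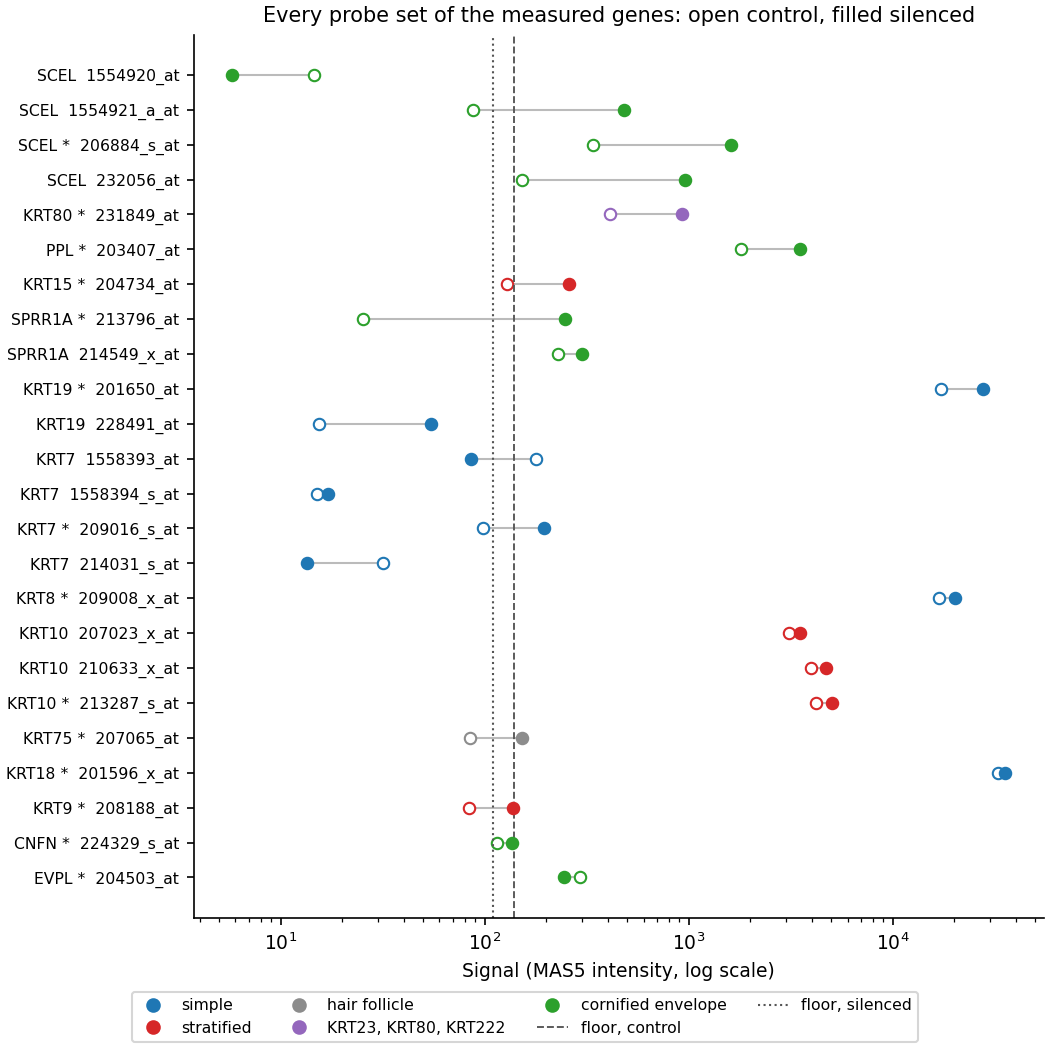
Every probe set of the 14 measured genes, with the control signal as an open circle and the silenced signal as a filled one, on a log axis. Genes are ordered by their log2 ratio, a star marks the probe set that stands for the gene, and the vertical lines are the floors. The 3 SCEL probe sets that pass the floor all lie to the right after silencing, while the KRT7 probe sets go both ways.

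Of the simple keratins the basic pair KRT8 and KRT18 was detected and close to level. KRT8, the type II partner, read 16875.7 and 20236.3, a log2 ratio of 0.26. KRT18, its type I partner, read 32741.3 and 35514.7, a ratio of 0.12, which became -0.12 when the poly-A controls were equalised. Both differences are smaller than the SD of 0.32 between probe sets of one gene. That SD leaves out variation between arrays and does not show that either gene was unchanged. Each of these genes has a single probe set of the _x_at kind, which can also bind transcripts of related genes. The KRT8 pseudogene KRT8P12 had a probe set of its own at 263.3 and 314.6, also with a log2 ratio of 0.26, and a second at 126.7, under the floor, and 143, a bound of 0.05. Signal from such copies cannot be told apart from that of KRT8 here.

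KRT19, a small type I keratin common in simple and ductal epithelia, had the highest ratio among the simple keratins above the floor on both arrays. It read 17247 in control and 27615.6 in silenced cells, which is 1.60-fold higher. Its log2 ratio of 0.68 ran from 0.45 to 0.86 over all 12 alternatives, and 8.13% of all measured genes had a ratio at least as high. A second KRT19 probe set was under the floor, at 15.4 and 54.4.

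KRT7, the type II keratin of ducts and glands, gave no settled direction. The probe set that stands for it read 97.8, under the floor, and 194.8, at least 1.41-fold higher. Another read 177.9 and 86.0, the second under the floor, which is at least 1.62-fold lower. The remaining pair were under the floor on both arrays, at 15.1 and 17.0 and at 31.8 and 13.4. KRT20, the keratin of intestinal and gastric surface cells, read 27.0 and 49.2, also under the floor. Over the 4 measured simple keratins, the KRT7 bound included, the median log2 ratio was 0.38, with none past 2-fold. It was -0.01 without the _s_at and _x_at probe sets, which leaves only KRT7 and KRT19.

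Of the stratified keratins KRT10 alone was above the floor on both arrays. KRT10 is the type I keratin of the upper layers of skin. Its 3 probe sets read 4223.1 and 5030, 3982.1 and 4685.2, and 3097.3 and 3489.1, with log2 ratios of 0.25, 0.23 and 0.17. They lie close together and are all smaller than the SD of 0.32 between probe sets, which leaves out variation between arrays. All 3 probe sets are of the _s_at or _x_at kind, and without these kinds KRT10 was not among the measured members. Their closeness is therefore not taken as agreement of independent readings. KRT1, the usual type II partner of KRT10, was under the floor, at 77.2 and 34.1. The transcript annotated as KRT10-AS1, on the opposite strand, read 423.5 and 648.7, a log2 ratio of 0.62.

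KRT15, a type I keratin of basal cells, read 127.9, just under the floor, and 259.4. It was at least 1.87-fold higher, and with a floor 2 times higher it has no direction. KRT9, the keratin of palm and sole skin, read 84.1 and 137.4 and has no direction either. The other 14 stratified keratins with a probe set passed the floor on neither array, at signals from 5.6 to 118.1 on the probe sets that stand for them. They were KRT1, KRT2, KRT3, KRT4, KRT5, KRT12, KRT13, KRT14, KRT16, KRT24, KRT76, KRT77, KRT78 and KRT79. The basal pair KRT5 and KRT14 read 22.4 and 44.2, and 7.6 and 69.0. KRT13, a mucosal keratin, read 118.1 and 27.8. A signal under the floor does not show that a transcript is absent, since the floor sets what these arrays can resolve.

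Among the hair follicle keratins only KRT75, a type II keratin of the companion layer around the hair, passed the floor. It read 84.3 and 151.9, which is at least 1.10-fold higher with the deposited scaling and without direction in the scaling to poly-A controls. The other 18 were under the floor, at 1.3 to 94.7. They were KRT25, KRT27, KRT31, KRT32, KRT33A, KRT33B, KRT35, KRT36, KRT37, KRT38, KRT40, KRT71, KRT72, KRT73, KRT74, KRT83, KRT84 and KRT85. One further probe set, at 2.0 and 4.7, is listed under KRT34 and a second symbol and was not used. Members of the rule for which the annotation table lists no probe set were not analysed here. They include keratins of the stratified and hair follicle classes, so the detected shares of these classes cover only the genes with a probe set.

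Among keratins with a probe set, simple and stratified ones differed in how many were detected (4 of 5 and 3 of 17), not visibly in their ratios. The median log2 ratio was 0.38 over 4 simple keratins and 0.25 over 3 stratified ones. The first includes the KRT7 bound, and the second the KRT15 bound and KRT9, which has no direction. Over the keratins above the floor on both arrays the median was 0.26 for 3 simple keratins and 0.25 for KRT10 alone. With so few genes and 1 array per group this difference could not be tested. The envelope genes had a median of 0.84 over 5 measured genes, from -0.27 for EVPL to 2.24 for SCEL, and of 0.95 over the 3 on both arrays. The 0.84 is the bound of SPRR1A, and the 5 include CNFN, whose bound has no direction. The envelope median was 0.39 with a floor 2 times higher and 0.25 with no floor, and the stratified median 0.58 with the higher floor on both arrays.

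The keratin genes form a cluster on chromosome 12, which holds the type II genes and KRT18, and another on chromosome 17 with the other type I genes. Of 21 keratin genes with a probe set on chromosome 12, 5 were measured, and of 23 on chromosome 17, 4. The measured genes often lay side by side in the RefSeq gene order. KRT8 and KRT18 have 0 protein-coding genes between them, as have KRT80 and KRT7, and KRT15, KRT19 and KRT9 follow each other. On chromosome 17, KRT15 (a bound of 0.91), KRT19 (0.68) and KRT9 (no direction) lie between KRT13 and KRT14, both under the floor. Whether neighbours have like ratios was not tested.

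**Figure D4:**
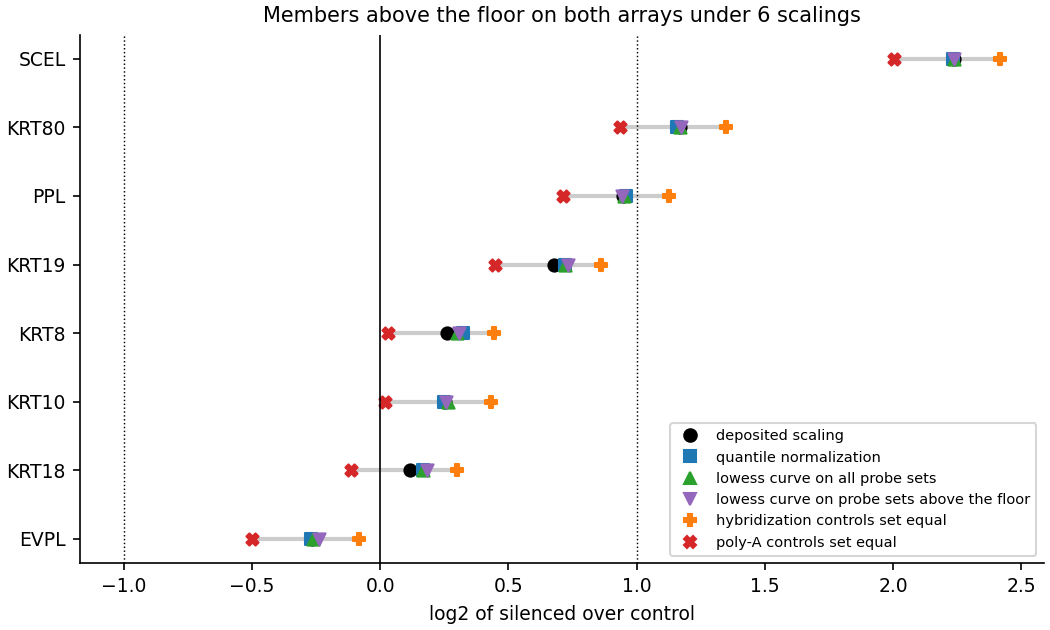
Log2 of silenced over control for the 8 members above the floor on both arrays, with the deposited scaling and 5 others. Dotted lines mark 2-fold. SCEL lies beyond 2-fold in all of them, KRT80 in all but the scaling to the poly-A controls (0.93), and PPL only in the scaling to the hybridization controls (1.13), while KRT18 turns from 0.12 to -0.12 with the poly-A controls.

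A further list held keratin filament linkers and desmosomal plaque genes, with some related genes such as MACF1, PNN and VIM that are not keratin linkers as such. Of these genes 14 of 15 were measured, against 53.2% of all genes. Of the 14, 2 were at least 2-fold higher (3.31% of all measured genes were) and none 2-fold lower (3.07%). This list was chosen with earlier results known, so these shares cannot be read as an excess. The median log2 ratio was 0.16, against -0.02 over all measured genes. DST, dystonin, a plakin that binds filaments at hemidesmosomes, read 1023.8 and 2388.5, which is 2.33-fold higher, and of its other probe sets one measured on both arrays had a log2 ratio of 1.40 and 3 had bounds of 0.29, 0.48 and 1.89. MACF1, a related linker of actin and microtubules, read 1891 and 4211.9 (2.23-fold higher), and its others measured on both arrays gave log2 ratios of 1.13 to 1.56. The desmosomal plakin DSP was close to level at 17425.6 and 19940, a log2 ratio of 0.19. The plaque genes JUP and PKP2 had ratios of 0.50 and 0.44, and PERP, a desmosomal membrane protein, 0.76.

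Most other genes of epidermal differentiation were under the floor. Of 31 such genes 4 were measured (12.9%, against 53.2% of all genes) and none was past 2-fold either way, with a median log2 ratio of -0.04. The ratios farthest from 0 were those of LYPD3, a surface protein of stratified epithelia, at 139.9 and 224.7 (log2 ratio 0.68), and DMKN, dermokine, at 6151.7 and 3869.7 (-0.67). The other 27 were under the floor, among them FLG, LORICRIN, CASP14 and TGM3.

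Regulators of epithelial differentiation, transcription factors and the receptor NOTCH1, were mostly measured. Of 24 genes 19 were above the floor, against 53.2% of all genes. Of the 19, 2 were at least 2-fold higher (3.31% of all measured genes) and none was 2-fold lower (3.07%). Here too the list was chosen with earlier results known, so the shares cannot be read as an excess. The median log2 ratio of the 19 was 0.23, against -0.02 over all measured genes. EHF, an epithelial ETS factor, read 33.1 and 459.5, at least 3.32-fold higher, and its other probe sets were under the floor on both arrays. JUN, a subunit of AP-1, read 896.1 and 1916.8, which is 2.14-fold higher, with its other probe sets at log2 ratios of 1.30 and 1.34 and a bound of 0.88. The AP-1 subunits FOSL1 and JUNB had ratios of 0.54 and -0.18. Any part of AP-1 in the ratios of SCEL or SPRR1A was not tested. The lowest were CEBPA at -0.90 and TFAP2A at -0.89, and KLF4 was at 0.39.

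LGALS3, the silenced gene, was 7.48-fold lower, with 20206.3 in control and 2699.8 in silenced cells (13.4% of the control). Of 7 epithelial markers, a list that includes the members KRT8 and KRT18, 6 were measured. All 6 had log2 ratios above 0, with a median of 0.34, against -0.02 over all measured genes. They ran from 0.04 for EPCAM, at 18866.5 and 19383, up to 0.84. All 7 gastric markers (TFF1, TFF2, MUC5AC, GKN1, GKN2, VSIG1 and CLDN18) were under the floor on both arrays. Of 6 squamous keratinocyte markers only KRT10 was measured, and KRT5, KRT14, KRT1, DSG3 and DSC3 were under the floor. Of 6 leukocyte markers only LYZ was measured, and of 6 fibroblast markers only COL1A1, at 816.3 and 1502. COL1A1 probe sets disagreed, with log2 ratios of 0.88, 0.53 and -0.55. The summed signal of the fibroblast markers was 1038.1 and 1647.9, most of it from the COL1A1 probe set at 816.3 and 1502. That of the leukocyte markers was 25793.2 and 27492.4, nearly all from LYZ. Both samples were AGS cells of a single line, and the other leukocyte and fibroblast markers with a probe set were under the floor. The sums are therefore not read here as shares of leukocytes or fibroblasts. A change in some of the cells and a smaller change in all of them cannot be told apart in such bulk samples.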

How the data were processed

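Per the labels' protocols, Trizol was used for the RNA and cRNA carrying biotin went onto Affymetrix arrays of one colour. The authors deposited a linear intensity per probe set, computed by MAS5 per the submitters' processing notes. Its software version, scaling target and filters were not given in the sources used here. Both arrays had a 2% trimmed mean of 500.07, and no scaling was added. Because MAS5 treats every array separately, low signals carry more noise, and a shared mean would mask a difference in total RNA.

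Of 54675 probe sets 41097 carry 1 symbol in the platform annotation, which gave 19775 genes, 10514 of them measured. By gene identifier 53 of the members matched RefSeq (GRCh38.p14). Keratin classes and gene lists follow general knowledge of the family. The members and lists were chosen with earlier results of these data known. Named genes are LGALS3, every measured member, and in each further list up to 4 genes past 2-fold, or the 2 farthest from 0. Other genes named there (DSP, JUP, PKP2, PERP, FOSL1, JUNB, CEBPA, TFAP2A, KLF4, FLG, LORICRIN, CASP14 and TGM3) were chosen after their values were seen. All log2 ratios were computed here from the deposited values. With 1 array per group there was no test, and the precision is limited by that number. Alternatives changed the scaling (quantile, lowess curves, 2 kinds of array controls), the floor, an offset of 50 and the choice of probe sets. The steps were tested on simulated data, in Python 3.11.15 with pandas 2.3.3 and statsmodels 0.14.6.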

Additional observations from a re-analysis of the deposited data

How the results depend on the processing

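No paired analysis was possible because each group has 1 array, and for the same reason no array could be left out. An alternative was taken to move a log2 ratio when the shift passed 0.32, the SD between probe sets of one gene. The number of measured members was 24 with each array's median signal as the floor, instead of 14, and stayed between 10 and 14 otherwise. The number at least 2-fold higher, 2 as reported, was 4 with a lowess curve fitted above the floor, 5 with the hybridization controls set equal, 1 with the poly-A controls set equal, 4 with the array median as the floor and 10 with no floor. With no floor 10 members were also 2-fold lower, instead of 0, and all 10 of these are under the floor on both arrays in the reported setting. Of the 10 that were higher with no floor, KRT3, KRT14, KRT16, KRT23, KRT33B and KRT84 are under it on both arrays as well. Over all genes, 576 were 2-fold higher and 183 lower with the hybridization controls set equal, 186 and 633 with the poly-A controls set equal, and 2466 and 2459 with no floor, against 348 and 323 as reported. The median of all measured members was 0.76 without _s_at and _x_at probe sets, and that of the simple keratins -0.0102. The median of the envelope genes was 0.39 with a floor 2 times higher and 0.25 with no floor. The stratified median was 0.58 with the higher floor on both arrays, which was added after the data were seen. KRT80 was 2-fold higher under 11 of 12 alternatives and PPL under 1. For KRT7 the log2 ratio ran from -0.70 to 0.99, and for SPRR1A from -0.16, a bound with no direction, to 3.30. Signals near the floor limit what can be said of KRT7, KRT9, KRT15, KRT75, CNFN and SPRR1A.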

Other observations

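Some members under the floor on both arrays had signals that differed widely between the arrays, and they are given as values only. KRT23 read 8.6 in control and 91.1 in silenced cells, KRT14 7.6 and 69.0, and the _x_at probe set of SPRR3 15.4 and 89.0. In the other direction KRT13 read 118.1 and 27.8, KRT85 57.1 and 4.3, and KRT1 77.2 and 34.1. The plakins, a family grouped here after the values were seen, did not move as one. DST, MACF1 and PPL had log2 ratios of 1.22, 1.16 and 0.95, while DSP was at 0.19, EPPK1 at 0.06, PLEC at -0.27 and EVPL at -0.27.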
